A study of Homo sapiens with 21 samples.

Results

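The 33 genes described here encode enzymes of sterol and fatty acid synthesis, their regulators and a few sterol carriers, out of 28395 genes in the count table. They were listed as genes of the sterol regulatory element-binding protein (SREBP) pathway, plus MYLIP, because sterol genes differed between lapatinib and nilotinib in these data. The libraries treated with lapatinib alone or nilotinib alone therefore chose the list, and their values are given as a description. Counts of called genes in those libraries stand beside the share of all genes called, and support nothing about the list. All 33 genes passed the filter on low counts and were tested in the other comparisons. By role, 7 belong to the mevalonate steps, 11 to the sterol steps, 6 to regulation, 6 to fatty acid synthesis and 3 to sterol transport.

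RNA came from wild-type Hs578T, a human triple-negative breast cancer (TNBC) cell line, collected 8 h after treatment. There were 7 groups of 3 replicates. The control cells received DMSO, and 2 groups received THZ531 alone, at 0.1 or 1.0 μM. Lapatinib was used at 3.16 μM and nilotinib at 1.0 μM, each alone and in combination with 0.1 μM THZ531. THZ531 inhibits CDK12 and CDK13, kinases of RNA polymerase II, while lapatinib and nilotinib inhibit tyrosine kinases. Total counts per library were 97612207 to 112229052, of which the 33 genes held 0.34% to 0.424%. One cell line stands for the disease here. Expression is given as CPM, the count relative to library size, after trimmed mean of M-values (TMM) scaling, and log2 fold changes (log2 FC) come from edgeR. Their standard error (SE) was derived as the absolute log2 FC divided by the square root of edgeR's F statistic. A gene is called higher or lower at an edgeR Benjamini-Hochberg adjusted p under 0.05 over 16036 tested genes. In the DMSO libraries the oestrogen receptor gene ESR1 was at 0.364 ± 0.0297 CPM (SD, n = 3) and the progesterone receptor gene PGR was at 0 in each library, whereas ERBB2 was at 37.5 ± 4.09 CPM. The mesenchymal genes VIM and CDH2 were at 6845 ± 281 and 531 ± 16.1 CPM, and the epithelial genes CDH1 and EPCAM were at 0.205 ± 0.0391 and 0.0364 ± 0.0177 CPM.

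Cells build cholesterol from acetyl-CoA through mevalonate, farnesyl diphosphate and squalene. The transcription factors SREBP-1 and SREBP-2, made from SREBF1 and SREBF2, are escorted by SCAP to the Golgi when sterols are low, cleaved there, and then switch on genes of sterol and fatty acid synthesis. INSIG1 and INSIG2 retain the SCAP complex in the endoplasmic reticulum when sterols are high, and INSIG1 is itself an SREBP target. MYLIP encodes a ubiquitin ligase for lipoprotein receptors and is driven by the liver X receptor (LXR), which senses oxysterols. SREBP binds DNA at sterol regulatory elements, usually together with factors that bind CCAAT boxes or GC-rich sites.

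RefSeq promoter windows (GRCh38.p14, 250 bases before to 50 after a start site) were matched to 29 of the 33 genes, and every listed window of a gene was searched on both strands. The sterol regulatory element TCACNCCAC was found in 1 of 29 genes (3.45%), SREBF2, and in 1.41% of 12270 tested genes with a window. Allowing 1 mismatch outside the N raised this to 13 genes (44.8%), against 30.6% of tested genes. The CCAAT box was found in 21 genes (72.4%), against 42.8%, the GC box GGGCGG in 28 genes (96.6%), against 72.9%, and the E-box CACGTG in 4 genes (13.8%), against 11.9%. These shares describe letters in the windows and show no binding. The 250 bases before the most 5′ listed start are shown for SREBF2, which holds the exact element, and for 4 of the 7 genes that were higher with lapatinib than with nilotinib, chosen after their values were seen. Sequences run 5′ to 3′ on the gene's strand, and capitals mark CCAAT boxes in either orientation and elements with at most 1 mismatch.
SREBF2 (chr22:41832855-41833104, plus strand): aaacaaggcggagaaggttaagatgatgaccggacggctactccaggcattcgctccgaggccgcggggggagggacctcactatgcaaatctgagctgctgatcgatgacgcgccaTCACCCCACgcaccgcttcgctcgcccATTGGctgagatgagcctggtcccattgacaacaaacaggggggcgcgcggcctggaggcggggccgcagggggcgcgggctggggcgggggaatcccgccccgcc
INSIG1 (chr7:155297628-155297877, plus strand): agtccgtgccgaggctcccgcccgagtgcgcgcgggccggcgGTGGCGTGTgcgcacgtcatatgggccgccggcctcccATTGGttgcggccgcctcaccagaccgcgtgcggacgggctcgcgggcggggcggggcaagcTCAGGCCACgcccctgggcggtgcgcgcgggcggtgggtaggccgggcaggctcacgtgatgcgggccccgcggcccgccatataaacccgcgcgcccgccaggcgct
HMGCS1 (chr5:43313413-43313662, minus strand): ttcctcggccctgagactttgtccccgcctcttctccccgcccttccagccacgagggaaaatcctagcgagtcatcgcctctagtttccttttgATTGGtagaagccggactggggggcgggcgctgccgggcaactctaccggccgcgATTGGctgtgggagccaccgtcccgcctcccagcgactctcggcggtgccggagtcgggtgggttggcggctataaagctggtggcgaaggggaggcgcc
MSMO1 (chr4:165327419-165327668, plus strand): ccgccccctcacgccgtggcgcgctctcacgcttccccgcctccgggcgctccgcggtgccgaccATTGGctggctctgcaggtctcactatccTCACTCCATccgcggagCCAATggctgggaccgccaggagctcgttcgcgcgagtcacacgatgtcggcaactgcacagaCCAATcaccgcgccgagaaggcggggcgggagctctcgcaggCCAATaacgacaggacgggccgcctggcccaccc
STARD4 (chr5:111512536-111512785, minus strand): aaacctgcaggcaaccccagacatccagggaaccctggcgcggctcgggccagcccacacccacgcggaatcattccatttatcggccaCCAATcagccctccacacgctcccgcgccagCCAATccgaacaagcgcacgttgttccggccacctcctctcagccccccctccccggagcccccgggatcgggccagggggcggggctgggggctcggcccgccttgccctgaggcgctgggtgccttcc

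The exact element of SREBF2, TCACCCCAC, begins 133 bases before the start, with 1 CCAAT box in inverse orientation (ATTGG) 106 bases before it. INSIG1 held 2 elements with 1 mismatch, at 208 and 108 bases before the start, and MSMO1 held 1 at 156 bases with 4 CCAAT boxes around it. HMGCS1 and STARD4 held 2 CCAAT boxes each and no element with up to 1 mismatch. At the most 5′ listed start of IDI1 the only match was an element with 1 mismatch beginning 9 bases before the start, and the window of CYP51A1, whose listed start lies inside the gene's span, held neither motif.

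In DMSO, the level per kilobase of exon was highest for SCD, the stearoyl-CoA desaturase, at 160.0 CPM per kb, followed by FDFT1, the squalene synthase, at 55.1, the lysosomal sterol carrier NPC2 at 48.9 and SQLE, the squalene epoxidase, at 41.0 CPM per kb. MYLIP, at 0.693 CPM per kb, was near the bottom of this order. Below it lay ACACA, the acetyl-CoA carboxylase, at 0.234, TM7SF2, a sterol reductase, at 0.133 and EBP, a sterol isomerase, at 0.0624 CPM per kb. Replicates of most genes lay close together, and for 27 of the 33 the largest coefficient of variation within any group was under 20%. The spans of 9 of the genes, MVK, IDI1, ACAT2, FADS1, FADS2, SREBF1, NPC1, NPC2 and ACACA, overlap that of another protein-coding gene, and without strand the reads of such a pair cannot be told apart where they overlap.

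With lapatinib alone, the genes that stood above both DMSO and nilotinib lay at several steps of the sterol branch. INSIG1 was at 200.0, 176 and 191 CPM in the 3 lapatinib libraries, against 113, 101 and 111 with DMSO and 126, 119 and 119 with nilotinib. All 3 lapatinib libraries were above every DMSO and nilotinib library. MSMO1, a sterol methyl oxidase, was at 87.9, 78.4 and 79.3 CPM with lapatinib, 55.5, 47.0 and 52.6 with DMSO, and 59.3, 54.3 and 52.6 with nilotinib. STARD4, a cytosolic sterol carrier, was at 24.2, 22.0 and 24.0 CPM with lapatinib, 14.6, 13.0 and 13.3 with DMSO, and 19.6, 16.2 and 15.6 with nilotinib. Lapatinib and the other groups did not overlap for either gene. HMGCS1, the cytosolic HMG-CoA synthase at the entry to mevalonate, was at 124, 130.0 and 130.0 CPM with lapatinib, 94.5, 95.0 and 88.0 with DMSO, and 78.2, 83.1 and 83.9 with nilotinib. Here too the lapatinib libraries were the highest of the 3 groups, and the nilotinib libraries were below all DMSO libraries.

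The size of these differences was moderate. Lapatinib minus nilotinib was 0.64 ± 0.11 for HMGCS1 (log2 FC ± SE), 0.64 ± 0.08 for INSIG1, 0.56 ± 0.07 for MSMO1, 0.46 ± 0.08 for the isopentenyl isomerase IDI1, 0.45 ± 0.09 for STARD4, 0.43 ± 0.09 for SQLE and 0.28 ± 0.06 for CYP51A1, the lanosterol demethylase. These were the 7 of 33 genes called higher and 0 were called lower, where 0.355% and 0.549% of all tested genes were called. The counts repeat what chose the list. The median log2 FC of the 33 genes was 0.04, since most of the list did not move. Leaving out lapatinib replicate 3 left 3 of the 7 calls, and leaving out lapatinib replicate 1, nilotinib replicate 2 or nilotinib replicate 3 left 4.

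Against DMSO, 6 of the 33 genes were called higher with lapatinib (0.256% of all tested genes) and 1 was called lower (0.0561%). The 6 were INSIG1 (log2 FC 0.80 ± 0.08), STARD4 (0.78 ± 0.09), MSMO1 (0.66 ± 0.07), SQLE (0.47 ± 0.09), IDI1 (0.42 ± 0.08) and CYP51A1 (0.37 ± 0.06), while HMGCS1, at 0.47 ± 0.11, was called only by DESeq2 and in a fit of only these groups. MYLIP was the gene called lower, at 1.21, 1.22 and 1.20 CPM with lapatinib against 1.78, 2.14 and 2.47 with DMSO, a log2 FC of -0.81 ± 0.14. It lost its call when any library of these groups except DMSO replicate 1 was left out, and leaving out DMSO replicate 2 or 3 or lapatinib replicate 1 or 3 left 3 of the 6 higher calls. With nilotinib 0 genes were called in either direction (0.243% and 0.0998% of all tested genes higher and lower), and 1, STARD4, was called by DESeq2. At an unadjusted p under 0.05, 4 passed, without a count of all genes at that threshold. MYLIP was at 1.43, 1.56 and 1.77 CPM with nilotinib, below every DMSO library, with a log2 FC of -0.42 ± 0.14. STARD4 was at 0.33 ± 0.09 and EBP at -0.99 ± 0.65 with nilotinib against DMSO. The SREBP genes and the main fatty acid genes were not called with either inhibitor. With lapatinib the log2 FC was -0.14 ± 0.10 for SREBF1, 0.10 ± 0.06 for SREBF2, 0.11 ± 0.11 for FASN, the fatty acid synthase, and 0.26 ± 0.08 for SCD. With nilotinib it was 0.07 ± 0.06 for SREBF2, 0.07 ± 0.11 for FASN, 0.23 ± 0.08 for SCD, 0.04 ± 0.09 for SQLE, -0.18 ± 0.11 for HMGCS1 and 0.16 ± 0.08 for INSIG1, and the mean of SREBF1 was 62.2 against 62.3 CPM.

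**Figure D1:**
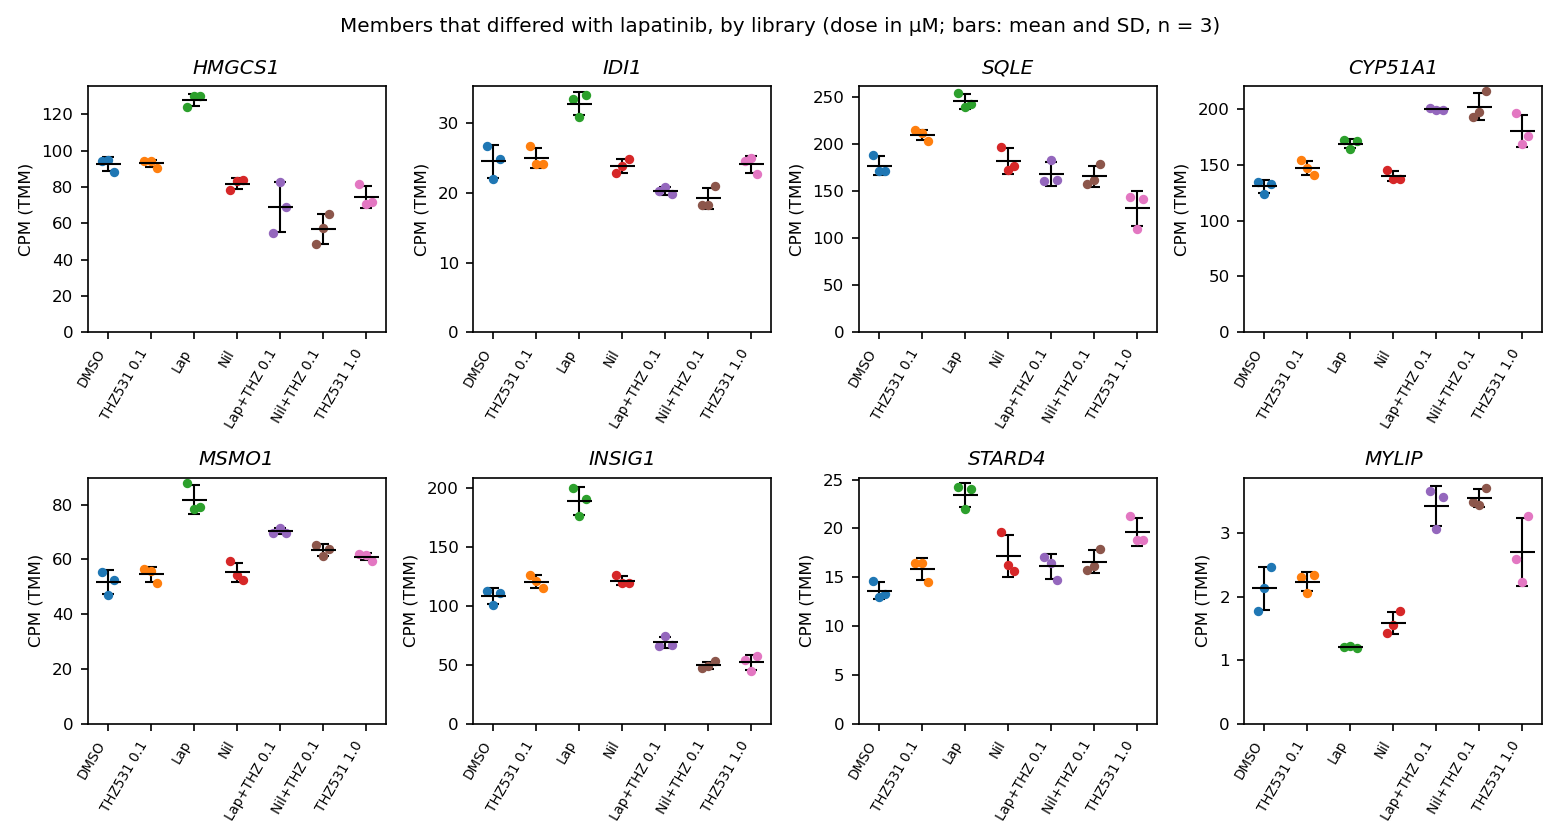
Expression (CPM, linear axis) of 8 genes in each of 21 libraries, grouped by treatment, with points for replicates and bars for the mean and SD (n = 3). The lapatinib libraries were the highest of all for HMGCS1, IDI1, SQLE, MSMO1, INSIG1 and STARD4 and the lowest for MYLIP, while all 3 groups with strong THZ531 treatment had INSIG1 below DMSO.

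The list was not chosen on the libraries treated with THZ531 together with lapatinib or nilotinib, although earlier results of these data were known. Comparing these libraries asks whether the inhibitors differed when 0.1 μM THZ531 was present. INSIG1 was at 65.6, 74.4 and 66.9 CPM with lapatinib and THZ531 and at 46.9, 49.1 and 52.8 CPM with nilotinib and THZ531, so that the groups did not overlap. It was 1.39-fold higher with lapatinib (log2 FC 0.48 ± 0.08, edgeR adjusted p = 0.00621), and kept its call with each library left out (edgeR adjusted p 0.00821 to 0.0438). It was not called in a fit of only these 6 libraries (log2 FC 0.47, edgeR adjusted p = 0.175) or with scaling to the mitochondrially encoded mRNAs (log2 FC 0.42, edgeR adjusted p = 0.406). INSIG1 was the 1 gene of 33 called higher (0.73% of all tested genes), and 0 were called lower (0.736%). At an unadjusted p under 0.05, 8 passed, but the share of all genes at that threshold was not counted. Same-numbered replicates of the combinations deviated together. With the replicate number as a block in a fit of only these groups, 2 of 32 genes tested were called higher, where 3.2% of all genes in that fit were. They were INSIG1 (edgeR adjusted p = 0.00037) and ACACA (edgeR adjusted p = 2.87e-05), and 0 were called lower (2.71%).

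HMGCS1 was at 54.8, 82.6 and 69.1 CPM with lapatinib and THZ531 and at 48.6, 57.4 and 64.9 CPM with nilotinib and THZ531. These groups overlapped, and the log2 FC of 0.27 ± 0.11 was not called (edgeR adjusted p = 0.28). MVK, the mevalonate kinase, was at 2.74, 1.99 and 1.90 CPM against 2.84, 2.46 and 2.84 CPM (log2 FC -0.29 ± 0.13, edgeR adjusted p = 0.315). Without replicate 1 of lapatinib with THZ531, HMGCS1 was called higher and MVK lower. The other genes that separated lapatinib from nilotinib alone had small differences in the combinations, with a log2 FC of 0.15 ± 0.07 for MSMO1, 0.08 ± 0.08 for IDI1, 0.03 ± 0.09 for SQLE, -0.02 ± 0.06 for CYP51A1 and -0.04 ± 0.09 for STARD4. MYLIP (-0.05 ± 0.14), SREBF1 (0.09 ± 0.10), SREBF2 (0.01 ± 0.06), FASN (0.09 ± 0.11) and SCD (0.07 ± 0.08) were not called either. Whether the inhibitors differed less with THZ531 than without it was not tested. The difference between inhibitors alone and the difference between combinations share no library. Across the 33 genes their Pearson correlation was -0.37 and their Spearman correlation 0.12, and without ACACA, EBP and TM7SF2, whose counts were low or uneven, these were 0.49 and 0.37 over 30 genes. Across all 16036 tested genes they were 0.06 and 0.11. The 2 differences had the same sign for 16 of the 33 genes, 16 of the 30 and 8371 of all tested genes. The difference between inhibitors alone chose the list, so the contrast with all genes supports nothing about it. Genes of 1 pathway measured in the same libraries are not independent points, and the values are a description.

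THZ531 at 0.1 μM alone moved few of the genes. SCAP was at 71.0, 71.4 and 75.5 CPM against 62.2, 64.2 and 62.5 with DMSO, with no overlap, and was called higher (log2 FC 0.21 ± 0.06, edgeR adjusted p = 0.0303). It was the 1 gene of 33 called higher (1.78% of all tested genes) and 0 were called lower (4.31%). At an unadjusted p under 0.05, 6 passed, and the share of all genes at that threshold was not counted. SCAP lost its call when any 1 of the 6 libraries was left out (edgeR adjusted p 0.0634 to 0.127). SQLE was at 214, 211 and 203 CPM against 188, 171 and 171 with DMSO, which did not overlap, but its log2 FC of 0.24 ± 0.09 was not called (edgeR adjusted p = 0.11). INSIG1 (0.15 ± 0.08), SREBF1 (0.14 ± 0.10), SREBF2 (0.10 ± 0.06), HMGCS1 (0.01 ± 0.11), FASN (0.17 ± 0.11), SCD (-0.05 ± 0.08) and MYLIP (0.07 ± 0.14) were not called.

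In the 3 strong treatments, lapatinib with THZ531, nilotinib plus THZ531, and THZ531 alone at 1.0 μM, most of the 33 genes were called. So were most of all tested genes, and the calls are relative to the other mRNAs. In this order, 19, 19 and 19 genes were called higher than DMSO (57.6% in each), where 34.3%, 33.7% and 33.1% of all tested genes were. Called lower were 7, 9 and 9 (21.2%, 27.3% and 27.3%), where 37.8%, 37.3% and 36.8% of all tested genes were. The 3 treatments share the DMSO libraries. The median log2 FC of the 33 genes was 0.45, 0.32 and 0.42, and that of all tested genes was -0.01 in each. The direction of the genes called higher depended on the scaling. When libraries were scaled to the 13 mitochondrially encoded mRNAs, the median of all genes shifted by -0.68, -0.62 and -0.54. The 33 genes then had 0, 0 and 1 called higher, where 5.3%, 4.83% and 4.35% of all tested genes were. They had 14, 14 and 13 called lower, where 58.4%, 55.9% and 52.5% of all tested genes were. Of the genes called with TMM, 12, 8 and 5 changed sign. Scaling by library size alone gave 14, 14 and 16 higher (20.9%, 20.5% and 21% of all tested genes) and 10, 11 and 13 lower (48.4%, 47.1% and 45.6%). Upper-quartile scaling gave 20, 19 and 20 higher (40.6%, 39.4% and 41.4%) and 5, 6 and 6 lower (33.1%, 33.1% and 30.5%). Relative to the median of all genes, the median of the 33 was higher by 0.46, 0.33 and 0.42 with TMM. Scaling shifts all genes of a library alike, so this difference hardly changes with it. The values of 0.46, 0.34 and 0.42 with mitochondrial scaling are therefore no check on the scaling. With a log2 FC beyond 1 required, 0 genes were called higher in any of the 3 (7.9%, 6.54% and 5.77% of all tested genes), and 2, 3 and 5 were called lower (21.3%, 20.8% and 18.9%).

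In bulk RNA, a lower level in every cell and fewer cells with the mRNA cannot be told apart. Among the mevalonate genes, MVK fell most. It was at 12.3, 13.6 and 14 CPM with DMSO, and at 2.74, 1.99 and 1.90 CPM with lapatinib and THZ531. In the nilotinib combination it was at 2.84, 2.46 and 2.84 CPM, and with 1.0 μM THZ531 at 2.54, 2.87 and 3.31 CPM. All 9 treated libraries were below all DMSO libraries, with a log2 FC of -2.59 ± 0.12, -2.29 ± 0.12 and -2.19 ± 0.12 (edgeR adjusted p = 3.48e-13, 1.69e-12 and 4.8e-12), and the fall was called under every scaling tried. HMGCS1 was lower in all 3 treatments (log2 FC -0.43 ± 0.11, -0.70 ± 0.11 and -0.31 ± 0.11, edgeR adjusted p = 0.00194, 1.31e-05 and 0.0179), though with 1.0 μM THZ531 it was not called with upper-quartile scaling or without replicate 2 or 3 of that group. IDI1 was lower in both combinations (-0.27 ± 0.08 and -0.35 ± 0.08), the former not with upper-quartile scaling (-0.12), and was at -0.02 ± 0.08 with 1.0 μM THZ531. The other 4 genes of these steps, ACAT2, PMVK, MVD and the farnesyl diphosphate synthase FDPS, were called higher in all 3 treatments with TMM, at log2 FC 0.45 to 0.74. With mitochondrial scaling 0 of these 4 were called higher.

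The sterol steps were mixed as well. CYP51A1, MSMO1, the oxidosqualene cyclase LSS, the sterol reductase DHCR7 and FDFT1 were called higher in all 3 treatments with TMM, and 0 of these 5 with mitochondrial scaling. There FDFT1 was called lower with lapatinib and THZ531 (-0.38), and MSMO1 with nilotinib and THZ531 (-0.33). FDFT1 and MSMO1 were also not called higher in any of the 3 with library-size scaling. CYP51A1 was at 201, 199 and 199 CPM with lapatinib and THZ531 against 135, 124 and 133 with DMSO (log2 FC 0.61 ± 0.06, edgeR adjusted p = 3.04e-08). NSDHL, a sterol dehydrogenase, was lower in all 3 (log2 FC -0.33 ± 0.08, -0.18 ± 0.08 and -0.35 ± 0.08), but with nilotinib and THZ531 its call was lost in 7 of 10 other settings, and in the others with upper-quartile scaling. SC5D, a sterol desaturase, was called lower with nilotinib and THZ531 (-0.23 ± 0.08; not by DESeq2 or without any 1 of 4 libraries) and was at -0.16 ± 0.08 and 0.07 ± 0.08 in the others. SQLE was called lower with 1.0 μM THZ531, at 143, 110.0 and 141 CPM against 188, 171 and 171 with DMSO (log2 FC -0.43 ± 0.09, edgeR adjusted p = 0.00021), and was at -0.07 ± 0.09 and -0.10 ± 0.09 in the combinations, where its sign turned with upper-quartile scaling. With library-size and mitochondrial scaling SQLE was called lower in both combinations (-0.75 and -0.72 with the latter). HSD17B7, a sterol ketoreductase, was at 12.5, 11.7 and 12.7 CPM with lapatinib and THZ531 and 12.3, 11.1 and 11.1 CPM with nilotinib plus THZ531, against 6.82, 6.32 and 7.49 with DMSO and 7.0, 5.93 and 7.57 with 1.0 μM THZ531. Both combinations were thus above DMSO and above high THZ531 in every library (log2 FC 0.84 ± 0.10 and 0.74 ± 0.10 against DMSO, edgeR adjusted p = 2.62e-07 and 1.56e-06), and with mitochondrial scaling these rises over DMSO were not called.

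Among the regulators, both INSIG genes fell in all 3 treatments. INSIG1 was at 53.7, 44.8 and 57.6 CPM with 1.0 μM THZ531, and its log2 FC against DMSO was -0.65 ± 0.08, -1.13 ± 0.08 and -1.06 ± 0.08 in the 3 treatments (edgeR adjusted p = 6.71e-07, 2.94e-10 and 9.58e-10). INSIG2 was at 6.59, 6.61 and 7.03 CPM with DMSO, 2.61, 3.01 and 2.20 with lapatinib and THZ531, 2.52, 2.84 and 2.74 with nilotinib plus THZ531 and 2.62, 1.93 and 2.79 with 1.0 μM THZ531. All treated libraries were below all DMSO libraries (log2 FC -1.37 ± 0.12, -1.32 ± 0.12 and -1.46 ± 0.13, edgeR adjusted p = 5.62e-09, 9.97e-09 and 3.03e-09). SREBF2 was at 113, 122 and 112 CPM with DMSO and at 195 to 221 CPM in the 9 libraries of the strong treatments (log2 FC 0.83 ± 0.06, 0.81 ± 0.06 and 0.88 ± 0.06, edgeR adjusted p = 2.75e-10, 3.6e-10 and 1.49e-10). SREBF2 was the 1 gene still called higher with 1.0 μM THZ531 under mitochondrial scaling, and it was not called in the combinations there. SREBF1 was at 91.2, 102 and 95.4 CPM with 1.0 μM THZ531 against 57.7, 68.2 and 60.9 with DMSO (log2 FC 0.63 ± 0.10, edgeR adjusted p = 1.28e-05), but at 0.10 ± 0.10 and 0.01 ± 0.10 in the combinations. With mitochondrial scaling SREBF1 was called lower in both combinations (-0.58 and -0.61), and with library-size scaling in the nilotinib combination (-0.29). SCAP was called higher in all 3 with TMM (0.74 ± 0.06, 0.71 ± 0.06 and 0.60 ± 0.06). MYLIP, which was lowest with lapatinib alone, was at 3.66, 3.07 and 3.57 CPM with lapatinib and THZ531 and 3.5, 3.44 and 3.71 with nilotinib plus THZ531, above all DMSO libraries (log2 FC 0.69 ± 0.14 and 0.74 ± 0.14, edgeR adjusted p = 0.000172 and 8.92e-05). With 1.0 μM THZ531 it was at 2.6, 2.23 and 3.28 CPM (0.35 ± 0.14, edgeR adjusted p = 0.0335), overlapping DMSO. This call was lost without DMSO replicate 1 or 2 or replicate 3 of the high dose, and its sign turned with mitochondrial scaling.

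Of the fatty acid genes, FASN, SCD, FADS1 and FADS2 were called higher in all 3 treatments with TMM and not with mitochondrial scaling. FASN was at 272, 337 and 291 CPM with DMSO and 431, 571 and 583 CPM with lapatinib and THZ531 (log2 FC 0.82 ± 0.12, 0.72 ± 0.12 and 0.67 ± 0.11 in the 3 treatments, edgeR adjusted p = 2.65e-06, 1.27e-05 and 3.44e-05). SCD was at 881, 796 and 837 CPM with DMSO and 1443, 1326 and 1561 CPM with lapatinib and THZ531 (0.79 ± 0.08, 0.72 ± 0.08 and 0.79 ± 0.08). No DMSO library of either gene reached the treated levels. The fatty acid desaturases FADS1 (0.63 ± 0.06, 0.69 ± 0.06 and 0.82 ± 0.06) and FADS2 (0.63 ± 0.08, 0.62 ± 0.08 and 0.70 ± 0.08), whose spans overlap, moved likewise. ELOVL6, a fatty acid elongase, was called lower with nilotinib and THZ531 (-0.23 ± 0.07) and at the high dose (-0.32 ± 0.07), and neither call held with upper-quartile scaling (-0.09 and -0.12). Of the carriers, NPC2 was called higher in all 3 (0.70 ± 0.05, 0.56 ± 0.05 and 0.56 ± 0.05), STARD4 too (0.24 ± 0.09, 0.28 ± 0.09 and 0.53 ± 0.09), and the lysosomal membrane protein NPC1 was lower in the combinations (-0.37 ± 0.07 and -0.54 ± 0.07). STARD4 lost its call with lapatinib and THZ531 without any 1 of 4 libraries, and with nilotinib and THZ531 without replicate 3. It was called lower in both combinations when mitochondrial scaling was used.

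**Figure D2:**
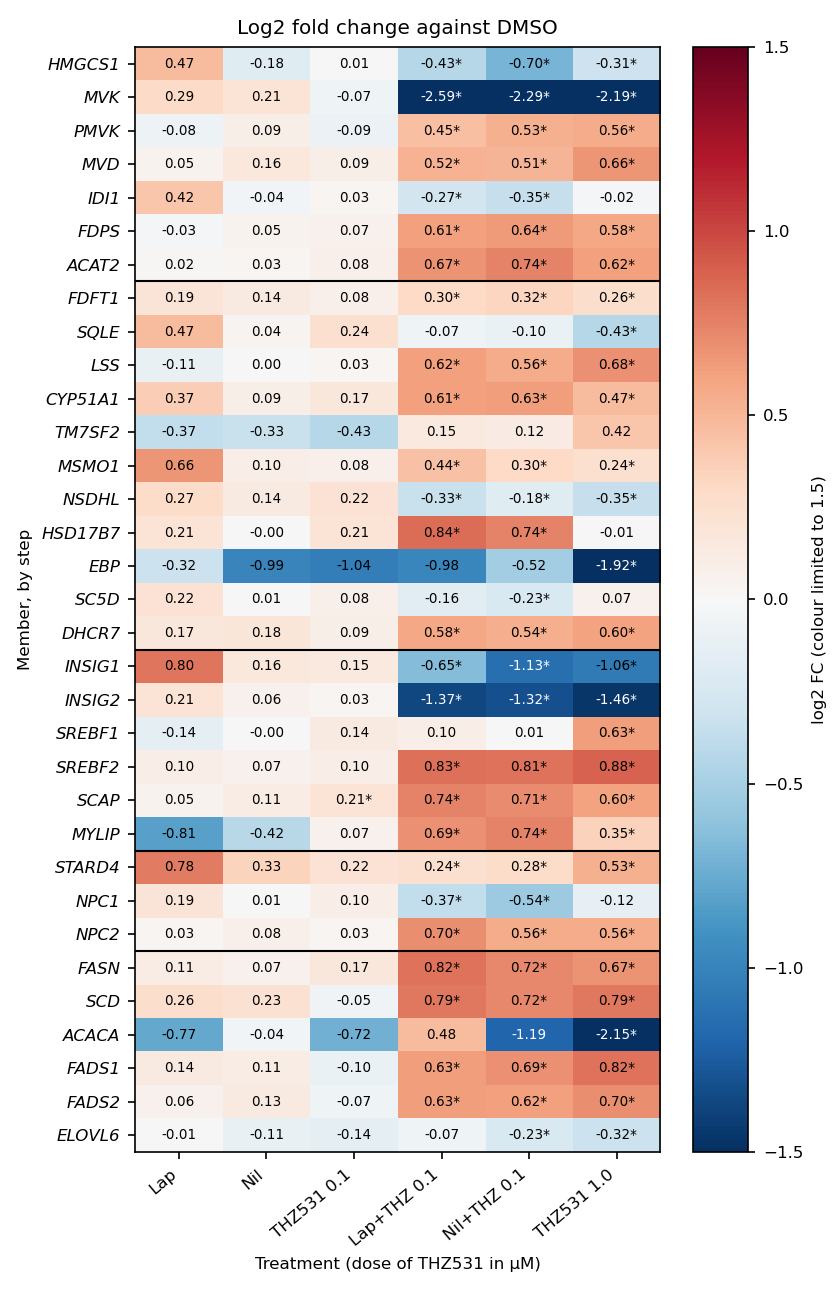
Log2 FC against DMSO (TMM scaling) of the 33 genes, in rows by role, for 6 treatments in columns, with colours limited to 1.5 in either direction and asterisks for genes called by edgeR in the 4 treatments with THZ531. MVK, INSIG1 and INSIG2 are lower in the 3 columns at the right, where most other genes are higher. With mitochondrial scaling 0, 0 and 1 of the 33 genes are called higher in those columns, where 5.3%, 4.83% and 4.35% of all tested genes are.

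**Figure D3:**
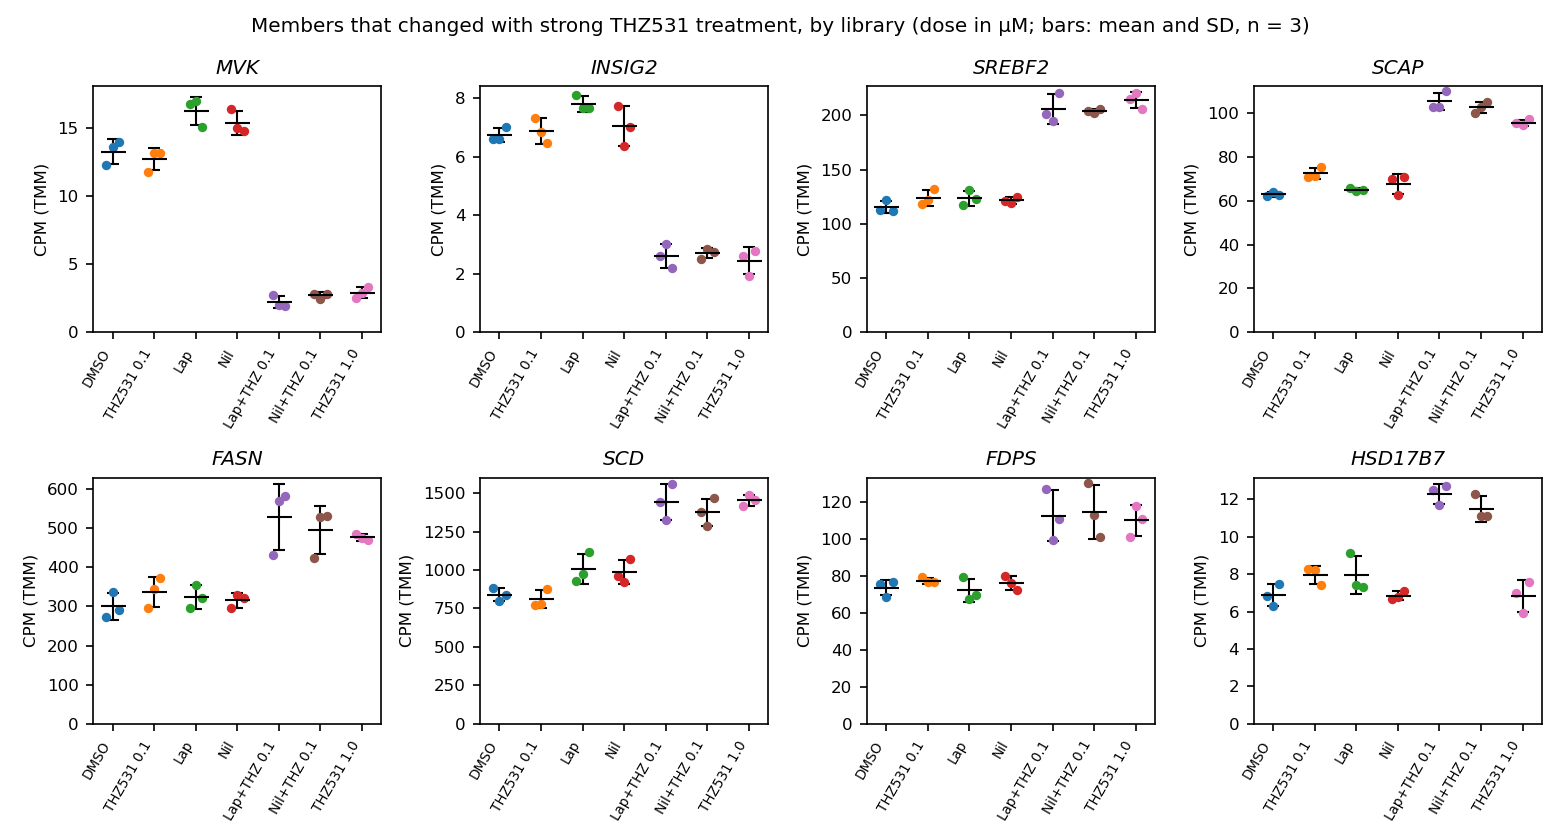
Expression (CPM, linear axis) of 8 genes in each of 21 libraries with bars for the mean and SD (n = 3). MVK and INSIG2 fall in all 3 strong treatments, SREBF2, SCAP, FASN, SCD and FDPS are higher there on the TMM scale, and HSD17B7 is higher in both combinations and not with 1.0 μM THZ531. On the mitochondrial scale these rises over DMSO were not called, except for SREBF2 with 1.0 μM THZ531.

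The 33 genes spanned 22.1 kb at the median, against 27.8 kb for tested genes, and the Spearman correlation of span and log2 FC across them was 0.04, -0.06 and -0.09 in the 3 strong treatments, against -0.19, -0.15 and -0.16 across 15857 genes with a span.

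The combinations and 1.0 μM THZ531 were also set against each other, which asks where a tyrosine kinase inhibitor with low THZ531 differs from high THZ531. SREBF1 was lower in both combinations, at 62.5, 70.4 and 67.8 CPM with lapatinib and 56.2, 62.6 and 69.5 CPM with nilotinib against 91.2, 102 and 95.4 CPM. The groups did not overlap (log2 FC -0.52 ± 0.10 and -0.61 ± 0.10, edgeR adjusted p = 0.000449 and 0.000116). HSD17B7 was higher in both (0.85 ± 0.10 and 0.75 ± 0.10, edgeR adjusted p = 3.67e-06 and 1.71e-05), and both genes kept their calls under every scaling tried. SQLE was higher in both as well (0.36 ± 0.09 and 0.33 ± 0.09, edgeR adjusted p = 0.00373 and 0.00769), but not with mitochondrial scaling. INSIG1 was higher than with 1.0 μM THZ531 in the lapatinib combination (0.41 ± 0.08, edgeR adjusted p = 0.000894), though not with mitochondrial scaling (0.27, edgeR adjusted p = 0.202), and was at -0.07 ± 0.08 in the nilotinib combination. The lapatinib combination had 7 genes called higher (12.8% of all tested genes) and 7 lower (16.1%), and the nilotinib combination had 3 higher (11.2%) and 5 lower (13%). For the lapatinib combination these counts were 4 and 3 without its replicate 2, with 3 lower also without its replicate 3 and 4 lower without replicate 2 of 1.0 μM THZ531. Without that last library the nilotinib combination had 1 gene called higher. HMGCS1 was at -0.12 ± 0.11 and -0.39 ± 0.11, the latter called lower (edgeR adjusted p = 0.0136), and MYLIP at 0.34 ± 0.14 and 0.39 ± 0.14, the latter called higher (edgeR adjusted p = 0.0457). The MYLIP call was lost without any 1 of 5 of the 6 libraries, and that of HMGCS1 without replicate 1 of either group. SREBF2 (-0.06 ± 0.06 and -0.07 ± 0.06), FASN (0.15 ± 0.11 and 0.06 ± 0.11) and SCD (-0.01 ± 0.08 and -0.08 ± 0.08) were not called.

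For ACACA, EBP and TM7SF2 the replicates were uneven or the counts few, which limits how far the groups can be placed. ACACA was at 4.02, 3.86 and 1.24 CPM with DMSO, 1.26, 3.70 and 0.574 with 0.1 μM THZ531, 0.665, 3.58 and 1.1 with lapatinib, and 4.16, 2.93 and 1.77 with nilotinib. It was at 2.83, 8.51 and 1.43 CPM with lapatinib and THZ531, 0.735, 2.56 and 0.693 with nilotinib plus THZ531, and 0.682, 0.660 and 0.717 with 1.0 μM THZ531. Replicate 2 was the highest in 4 of the 7 groups, and the high-dose libraries were the most even. ACACA fell with the high dose (log2 FC -2.15 ± 0.77, edgeR adjusted p = 0.0185), but not without DMSO replicate 1 or 2. Its level in the lapatinib combination was called above that of the high dose (2.63 ± 0.78, edgeR adjusted p = 0.0144), but not without replicate 2 of the combination. The 2 combinations differed by 1.68 ± 0.73 and were not called without pairing (edgeR adjusted p = 0.326). In each same-numbered pair of libraries ACACA was higher with lapatinib. It was called higher with the replicate block in only these groups (edgeR adjusted p = 2.87e-05), an alternative chosen after seeing the data.

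EBP had 0 to 23 counts per library. It was at 0.0645, 0.198 and 0.0681 CPM with DMSO, 0.0710, 0.0349 and 0.0530 with 0.1 μM THZ531, 0.0899, 0.0903 and 0.0830 with lapatinib, and 0, 0.0510 and 0.112 with nilotinib. It was at 0.0437, 0.0766 and 0.0445 CPM with lapatinib and THZ531, 0.0324, 0.108 and 0.0880 with nilotinib plus THZ531, and 0.0420, 0.0209 and 0.0214 with 1.0 μM THZ531. The high-dose libraries were below all DMSO libraries (-1.92 ± 0.76, edgeR adjusted p = 0.0297), and the call was lost without DMSO replicate 2 or without replicate 2 or 3 of the high dose. In the other tested comparisons EBP was not called, with a log2 FC from -1.04 ± 0.66 to 1.40 ± 0.82. TM7SF2 had 15 to 71 counts per library. It was at 0.516, 0.587 and 0.255 CPM with DMSO, 0.320, 0.279 and 0.407 with 0.1 μM THZ531, 0.135, 0.614 and 0.304 with lapatinib, and 0.297, 0.434 and 0.346 with nilotinib. In the 9 libraries of the strong treatments it lay between 0.346 and 0.744 CPM, and it was not called in any comparison.

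Other lists around the pathway, written with earlier results known, were counted in the same fit. Of 8 tested genes of LXR and sterol efflux, ABCA1, the cholesterol efflux pump and an LXR target like MYLIP, was at 3.32 ± 0.557 CPM with lapatinib, 6.97 ± 0.712 with nilotinib and 5.34 ± 0.344 with DMSO (SD, n = 3). Lapatinib minus nilotinib was -1.07 ± 0.17 for ABCA1, and SMPDL3A was at 0.49 ± 0.10. Of the 8, 1 was called lower and 1 higher there (0.549% and 0.355% of all tested genes), and 6 were not called. With lapatinib against DMSO 0 of the 8 were called, so the list as a whole did not move 1 way. Between the combinations ABCA1 was at 2.53 ± 0.323 and 3.76 ± 0.924 CPM (-0.57 ± 0.17, edgeR adjusted p = 0.111), and 0 of the 8 were called. Of 19 tested genes of fatty acid supply, 1 was called higher between the combinations and 0 lower (0.73% and 0.736% of all tested genes). It was MID1IP1, which encodes an activator of acetyl-CoA carboxylase, at 39.7 ± 5.51 with lapatinib and 27.4 ± 2.83 CPM with nilotinib (0.54 ± 0.12, edgeR adjusted p = 0.0236). The isoprenoid branch (13 genes, led by RABGGTB at 0.29 ± 0.08), SREBP processing (12, PAQR3 at 0.14 ± 0.12), sterol uptake and trafficking (18, LRP8 at 0.31 ± 0.10) and glycerolipid synthesis (12, PCYT1A at -0.18 ± 0.06) had 0 genes called between the combinations by edgeR. With so few of all genes called there, these counts do not set the lists apart.

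Against DMSO, lapatinib with THZ531 had 6 higher and 6 lower of 13 isoprenoid genes, 6 and 6 of 12 SREBP processing genes, 12 and 4 of 19 fatty acid supply genes, 4 and 2 of 8 LXR and efflux genes, 6 and 8 of 18 uptake genes and 6 and 5 of 12 glycerolipid genes, on the TMM scale, where 34.3% and 37.8% of all tested genes were called higher and lower. As shares these were 46.2% and 46.2%, 50% and 50%, 63.2% and 21.1%, 50% and 25%, 33.3% and 44.4%, and 50% and 41.7% of each list. In the same order of lists, nilotinib plus THZ531 had 5 and 6, 6 and 5, 11 and 4, 4 and 2, 6 and 8, and 6 and 3, against 33.7% and 37.3% of all tested genes. The high dose had 4 and 7, 6 and 4, 14 and 4, 5 and 2, 7 and 7, and 6 and 4, against 33.1% and 36.8%. Lists this short, with shares near those of all genes in many cases, are not set apart by these counts. With lapatinib and THZ531 against DMSO, the largest changes were falls of GRAMD1B, an endoplasmic reticulum sterol transporter, and of MLYCD, the malonyl-CoA decarboxylase. GRAMD1B went from 34.8 ± 2.97 to 8.07 ± 1.68 CPM (log2 FC -2.11 ± 0.13, edgeR adjusted p = 1.67e-11). MLYCD went from 5.05 ± 0.449 to 0.851 ± 0.0984 CPM (-2.57 ± 0.14, edgeR adjusted p = 2.99e-12).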

How the data were processed

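Polyadenylated RNA was sequenced as unstranded 100-bp paired-end reads. The authors aligned filtered reads to GRCh38 with HISAT2 (2.1.0 per the submitters' processing notes), counted them on genes with featureCounts and deposited raw counts for 28395 NCBI gene identifiers, of which 27745 had a RefSeq symbol. How multi-mapped reads were counted is not given in the sources used here. Counts of 1 to 20 were even in 61.6% to 66.4% of cases, so halved counts were tried.

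Counts were tested with edgeR 4.0.16 (R 4.3.3; filterByExpr, TMM, glmQLFit with 1 mean per group over all 21 libraries, glmQLFTest, two-sided), after tests on simulated data. DESeq2 1.42.0 was an alternative. Members and lists were chosen with earlier results of these data known. The members named with every library are the 4 with the largest change in each comparison, while MYLIP, SREBF1, SREBF2, INSIG1, HMGCS1, SQLE, FASN and SCD were named throughout. The study's supplement places the RNA-seq replicates in 3 independent experiments, and the labels do not say whether a replicate number marks one of them. Log2 CPM of replicates correlated at 0.983 to 0.999. Replicate numbers were taken to pair libraries where each same-number correlation of deviations over 7166 genes was above 0.1, which held for the combinations (0.91, 0.60 and 0.45) and for lapatinib and nilotinib alone (0.62, 0.19 and 0.55). Counts per gene do not separate transcript ends.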

Additional observations from a re-analysis of the deposited data

How the results depend on the processing

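Alternatives were library size, RLE, upper-quartile and mitochondrial scaling, 2 other filters, halved counts, only the groups compared, the replicate block, DESeq2 and each library left out. Halved counts moved no count of members by over 1.5 times.

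Members called higher with 0.1 μM THZ531 were 0 with library size, upper-quartile or mitochondrial scaling and with no filter. Of all genes in those fits, 1.18%, 1.3%, 0.256% and 0.884% were. They were 2 in a fit of only the groups compared (3.41%) and 3 by DESeq2 (2.53%), against 1 (1.78%). With mitochondrial scaling, the lapatinib combination had 0 higher and 14 lower than DMSO, the nilotinib combination 0 and 14, and 1.0 μM THZ531 had 1 higher. Of all tested genes, 5.3%, 4.83% and 4.35% were higher there, and 58.4% and 55.9% were lower in the combinations. Between the combinations 0 members were higher with mitochondrial scaling (0.0624% of all genes in that fit) and 0 in a fit of only these groups (0.0269%). With the replicate block in only these groups, an alternative chosen after seeing the data, 2 were (3.2% of all genes in that fit). Against 1.0 μM THZ531, the lapatinib combination had 4 higher with library size (10.1% of all genes in that fit). It had 2 with mitochondrial scaling (5.96%) and 3 with only the groups compared (7.64%). Lower were 4 with RLE (14.5%), 4 with mitochondrial scaling (16%) and 1 with only the groups compared (8.26%). The nilotinib combination had 1 higher with mitochondrial scaling (5.36%) and 1 with only the groups compared (6.28%), and 3 and 2 lower (9.68% and 6.29%). With mitochondrial scaling 2 were higher with lapatinib than nilotinib (0.0374% of all genes in that fit) and 2 than DMSO (0.143%). With only the groups compared 0 were lower with lapatinib than DMSO (0.106%), and DESeq2 called 1 higher with nilotinib (0.923%). The share of promoters with the sterol element was 44.8% with 1 mismatch. The causes were not tested, apart from the shift of all genes under each scaling.

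With 1 library left out, members called higher were 0 to 0 with 0.1 μM THZ531, 18 to 19 in each strong treatment, 1 to 2 between the combinations, 4 to 7 and 1 to 4 for the lapatinib and nilotinib combinations against 1.0 μM THZ531, 3 to 7 with lapatinib against nilotinib, 3 to 5 against DMSO, and 0 to 0 with nilotinib. Members called lower were 0 to 0, 7 to 8, 7 to 9 and 7 to 9 against DMSO, 0 to 1 between the combinations, 3 to 7 and 4 to 5 against 1.0 μM THZ531, 0 to 0 with lapatinib against nilotinib, 0 to 1 against DMSO, and 0 to 0 with nilotinib.

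Among the 8 genes named in every comparison, signs reversed in 20 cases, besides the called members that changed sign under mitochondrial scaling (12, 8 and 5 in the 3 strong treatments) and library-size scaling (FDFT1, MSMO1 and STARD4). SREBF1 was at -0.22 (library size) and -0.58 (mitochondrial) with lapatinib and THZ531 and -0.29 and -0.61 with nilotinib and THZ531. SQLE was at 0.09 and 0.04 there with upper-quartile scaling, and MYLIP at -0.19 with 1.0 μM THZ531 and mitochondrial scaling. HMGCS1 with 0.1 μM THZ531 was at -0.03 (library size), -0.02 (upper quartile), -0.00 (at least 10 counts) and -0.01 (only the groups compared). Between the combinations SREBF2 was at -0.02 (library size) and -0.06 (mitochondrial) and SQLE at -0.03 (mitochondrial). Against 1.0 μM THZ531, FASN was at -0.00 (mitochondrial) and SCD at 0.01 (RLE, DESeq2 and only the groups compared) in the lapatinib combination, and FASN at -0.01 (upper quartile) and -0.03 (mitochondrial) in the nilotinib combination.

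In comparisons other than those 2, not every same-number correlation was above 0.1, so the numbers were not taken to pair the libraries. Whether pairing holds there is not settled. With the replicate block the counts there were within 1.5 times of those without it. With nilotinib and THZ531 against DMSO, for example, 19 were higher and 10 lower (34.2% and 37.6% of all tested genes). In fits with all groups the block left 1 member higher between the combinations (0.91%) and 7 higher with lapatinib against nilotinib (0.486%).

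Precision was limited by 3 libraries per group, and for EBP and TM7SF2 by counts.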
